A study of Rattus norvegicus with 14 samples.

Results

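Rat aortic smooth muscle cells that had been given JQ1 and then platelet-derived growth factor (PDGF) were compared after 24 h and after 2 h of PDGF. The comparison was made of the libraries whose columns carried both agents and these times, which are 6 of the 14 libraries of the series, and it covered all 17312 genes of the table with the 92 spike-in rows left out. All cells were first kept in serum-free medium for 24 h. JQ1 was added at 500 nM 3 h before PDGF, and PDGF at 925 ng/ml. The groups were JQ1 plus PDGF at 24 h (n = 3) and JQ1 plus PDGF at 2 h (n = 3). They were set beside PDGF without JQ1 at 24 h (n = 3) and at 2 h (n = 3) and beside unstimulated cells (n = 2). The cells came from a commercial supplier, and nothing in the labels says that replicates were separate cultures, so the p-values cover the variation among these libraries alone, and that variation could be technical. Later libraries had longer PDGF, longer JQ1 and longer culture without serum, and these cannot be told apart. Cells given JQ1 without PDGF were not analysed here.

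Smooth muscle cells of the vessel wall carry a contractile apparatus of smooth muscle actin, myosin and actin-binding proteins, and they secrete elastin and collagen. PDGF, which signals through receptor tyrosine kinases, is a mitogen that lowers contractile genes in cultured cells while they divide and migrate. JQ1 blocks the bromodomains of BET proteins, so that they leave acetylated histones, which lowers transcription that depends on the elongation factor P-TEFb.

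Levels are given as FPKM, which divides fragments by transcript length and by the size of the library, after the authors' normalisation to synthetic spike-in RNA. Read depth per library is unknown. Between 10603 and 11064 genes were above 0 in the libraries at 24 h, against 10300 to 11034 at 2 h. Spike-ins made up 2.45 ± 0.21% of the unnormalised FPKM at 24 h and 2.38 ± 0.081% at 2 h (SD, n = 3 each). Across the 10133 tested genes, Spearman correlations lay between 0.9645 and 0.9881 for libraries of 1 group and between 0.8871 and 0.912 for libraries of different groups, as a description across genes that are not independent. Differences are log2 of the value plus 1, 24 h minus 2 h, each with its SE from limma, and a gene is said to have risen or fallen where its Benjamini-Hochberg adjusted p was under 0.05. Adding 1 makes the change of weakly expressed genes look smaller than it was. In bulk RNA, fewer cells of a type and less RNA per cell cannot be told apart.

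The cells carried the smooth muscle transcripts of their label, with 6198 ± 189 normalised FPKM of Acta2 at 2 h (SD, n = 3). The defining endothelial genes Pecam1, Cdh5 and Vwf stood in all 6 libraries at about 0.1, at or near the value that an FPKM of 0 takes after normalisation, and so did the leukocyte genes Ptprc and Cd3e. The endothelial marker list of 10 genes summed to between 18.4 and 24.7 normalised FPKM at 24 h, against 17.6 to 19.8 at 2 h, almost all of it Eng.

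Many genes moved between the times, more upward than downward on the spike-in scale, but the changes of 4-fold or more were mostly downward. In limma 2940 genes rose and 1761 fell (29% and 17.4% of the genes tested, 46.4% together). The split depended on the scale, since 2545 rose and 2725 fell of 10001 genes on unnormalised FPKM. The median difference was 0.14 normalised and 0.00 unnormalised, so the calls of small changes can depend on the scale. Which scale is nearer to the RNA per cell was not tested. Both scales put 2452 genes as higher and 1758 as lower, and 0 genes had opposite calls. In 57.6% of the tested genes the normalised 24 h and 2 h values did not overlap, so lack of overlap alone sets no gene apart. The naming rule required it of the most raised and most lowered genes. Of the called genes 240 were at least 4-fold lower and 69 at least 4-fold higher, and at 16-fold the numbers were 30 and 2. Without JQ1 56.3% of the genes passed in the same time course (26.9% as higher on unnormalised FPKM), with 129 genes at least 4-fold lower and 174 at least 4-fold higher.

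**Figure D1:**
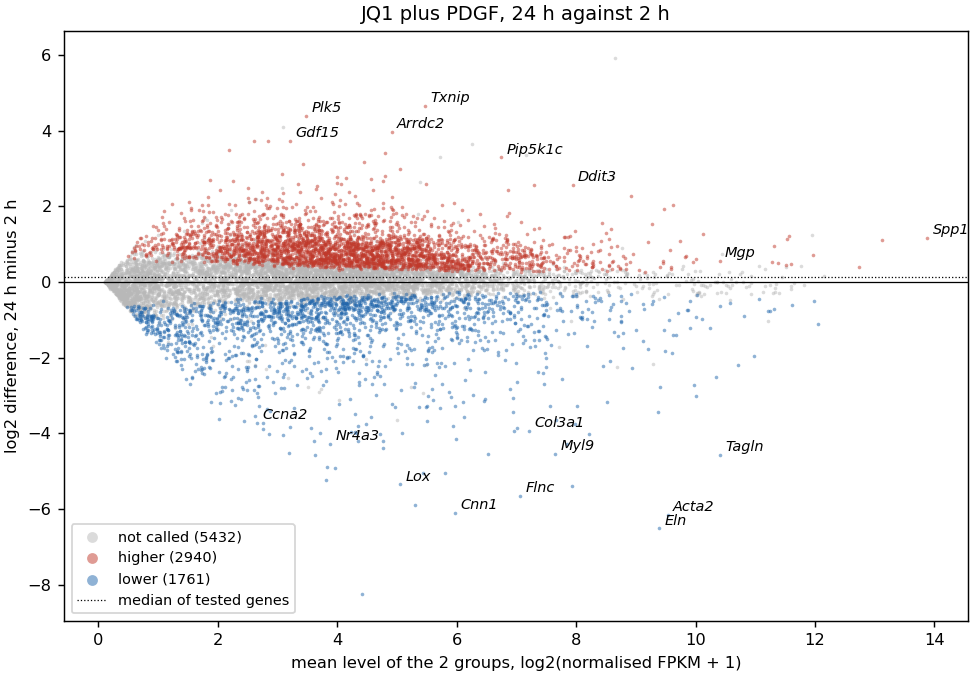
Each point is 1 of 10133 tested genes, with the mean of both groups on the x axis (log2 of normalised FPKM plus 1) and the log2 difference, 24 h minus 2 h of JQ1 plus PDGF, on the y axis. The 1761 genes that fell reach lower, with Eln at -6.51, than the 2940 genes that rose reach up, with Txnip at 4.65.

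Contractile genes held many of the deepest falls. Eln and Acta2, the elastin and smooth muscle actin genes, were the 2 most lowered genes that met the naming rule. Acta2 had 109.9, 69.3 and 84.6 normalised FPKM at 24 h, against 5981, 6326 and 6289 at 2 h, a log2 difference of -6.15 ± 0.16 (limma, adjusted p = 1.47e-12). Every 24 h library lay far below every 2 h library. Cnn1, which encodes the actin-binding protein calponin, had 9.3, 5.22 and 5.52 normalised FPKM at 24 h, against 478, 510.4 and 558 at 2 h (-6.11 ± 0.17). Tagln, the transgelin gene, had 339, 230.5 and 272 normalised FPKM at 24 h, against 6352, 6704 and 6807 at 2 h (-4.57 ± 0.15), and the regulatory light chain gene Myl9 had 50.3, 35.6 and 36.1 normalised FPKM at 24 h, against 931, 938 and 1009 at 2 h (-4.54 ± 0.13). In none of these genes did the groups overlap, which the naming rule required. Of the 25 contractile genes, 21 fell and 0 rose (17.4% of all tested genes fell), and on unnormalised FPKM 22 of 24 fell. The list median was -1.55, against 0.14 over all genes. Together the contractile genes took 0.714 ± 0.010% of the unnormalised FPKM at 24 h and 4.64 ± 0.066% at 2 h (SD, n = 3 each). Lmod1 (leiomodin, an actin filament nucleator), Cald1 (caldesmon) and the tropomyosin genes Tpm1 and Tpm2 fell by 3.53, 3.18, 3.02 and 2.20. Myh11, which encodes smooth muscle myosin heavy chain, was low throughout, with 0.461, 0.203 and 0.486 normalised FPKM at 24 h, against 2.09, 3.32 and 2.61 at 2 h (-1.40 ± 0.23, adjusted p = 0.000164). Synpo2, Kcnmb1, Pdlim3 and Des did not pass.

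Among the 15 most lowered genes that met the naming rule were also Flnc and Tnnc1, which are not on the contractile list. Flnc, which encodes filamin C, had 21.7, 13.4 and 19 normalised FPKM at 24 h, against 779, 1076 and 976 at 2 h (-5.65 ± 0.19). Tnnc1, the slow troponin C gene, had 11.2, 4.55 and 4.66 normalised FPKM at 24 h, against 256, 227 and 235 at 2 h (-5.04 ± 0.25). In both genes the 24 h libraries were all below the 2 h libraries, as the rule required.

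**Figure D2:**
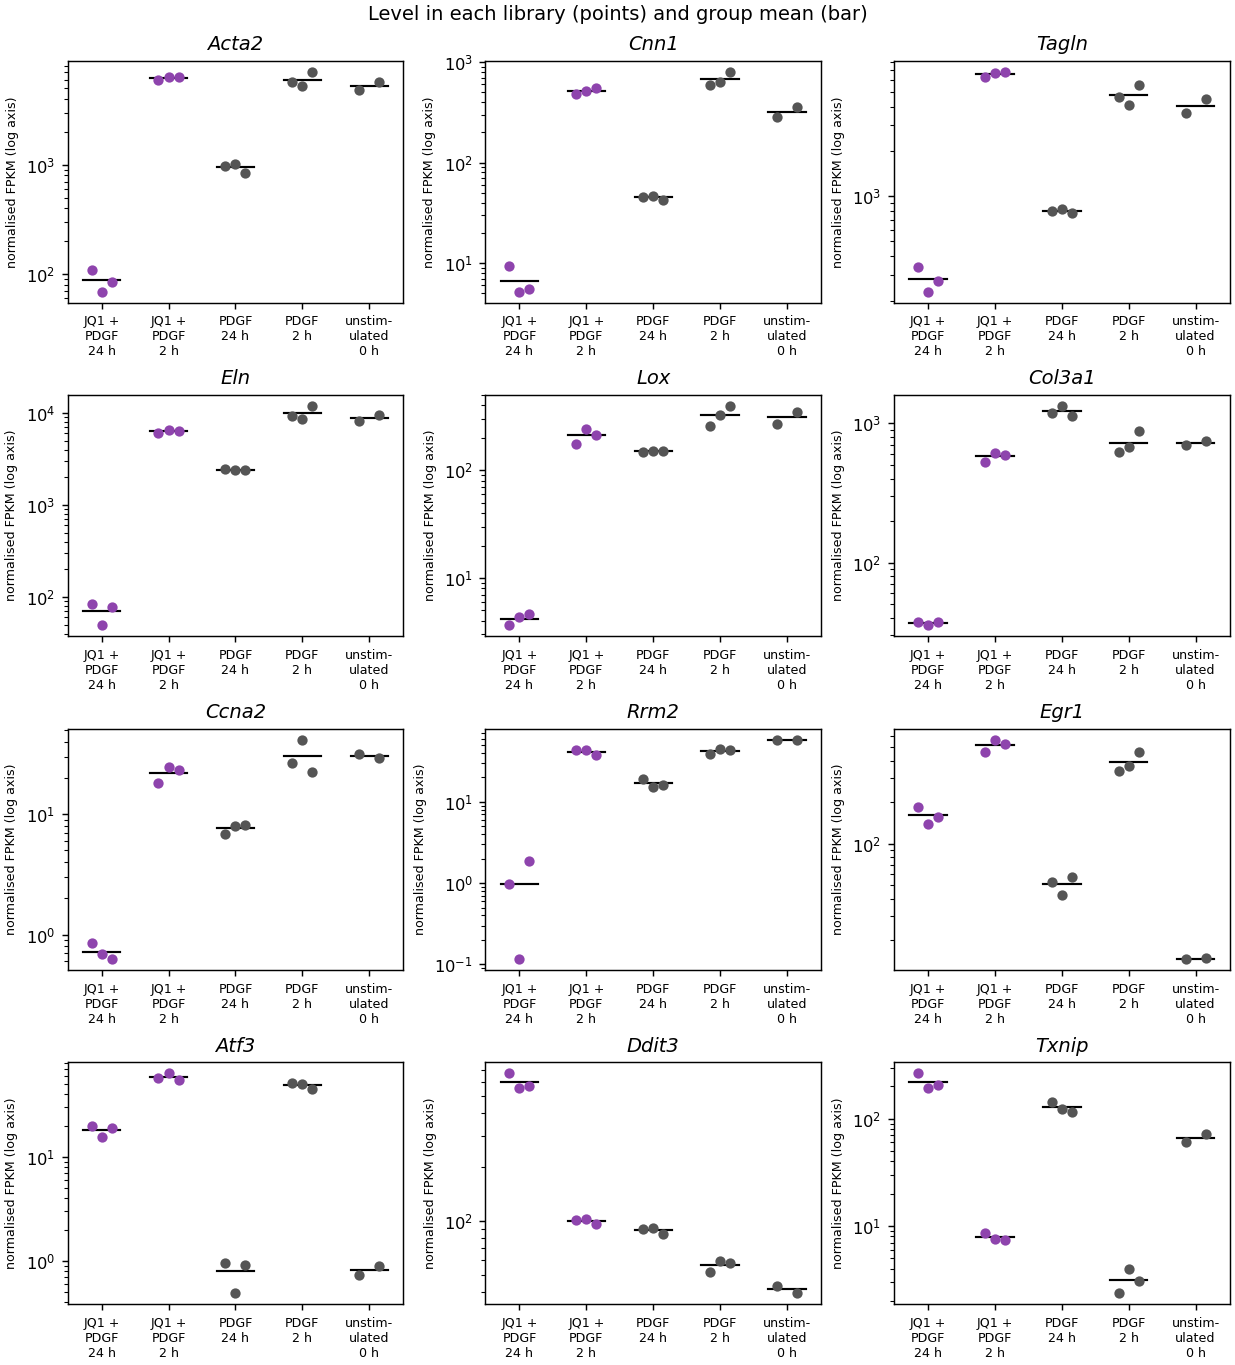
Points are the normalised FPKM of 12 genes in each library on log axes and bars are group means, for JQ1 plus PDGF at 24 h and 2 h, PDGF at 24 h and 2 h, and unstimulated cells. Acta2, Cnn1, Tagln, Eln and Lox lie lowest in the 3 JQ1 libraries at 24 h, whereas Ddit3 and Txnip lie highest there.

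Regulators of the contractile state moved in both directions. Myocd, the coactivator of contractile genes, stood at 0.118, 0.126 and 0.131 normalised FPKM at 24 h, against 0.47, 0.768 and 0.419 at 2 h, near the floor in the later libraries, and did not pass (-0.46 ± 0.27 (limma, adjusted p = 0.178)). It passed as lower on unnormalised FPKM. Srf, whose product binds CArG boxes, fell by 1.0, and Klf4, whose product represses contractile genes, by 0.78. Of 29 transcription factors of smooth muscle state, 10 fell and 7 rose (median -0.27), against 13 and 6 of 28 unnormalised. Over all tested genes 17.4% fell and 29% rose, against 27.2% and 25.4% unnormalised, so the rises were near that share. The number of these factors that rose was 4 without JQ1 plus PDGF 24 h replicate 0 or without 2 h replicate 2. Ets2 and Ets1, ETS family factors, fell by 2.73 and 2.22, Snai1, a repressor of epithelial genes, by 2.12, and Sox9, a chondrogenic factor, by 1.87. The homeobox gene Prrx1 rose, with 23.3, 24.3 and 23.8 normalised FPKM at 24 h, against 2.96, 3.41 and 3.11 at 2 h (2.58 ± 0.17), and Runx2, the osteogenic factor gene, rose by 1.19.

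The neighbouring loci of miR-143 and miR-145, microRNAs known to be abundant in smooth muscle, were also lower. They were picked after their values were seen. Of 41 tested microRNA loci 5 fell and 0 rose, with a median of -1.02 against 0.14 over all genes, where 17.4% of all tested genes fell. MicroRNA loci are short and their FPKM in polyadenylated RNA does not measure the mature microRNA, so the values are uncertain. Mir143 had 30.7, 59.2 and 22.4 normalised FPKM at 24 h, against 1033, 1929 and 1675 at 2 h (-5.40 ± 1.36 (limma, adjusted p = 0.00418)), without overlap. Mir143 also fell without JQ1 (-4.06 ± 1.36), and the difference between the time courses did not pass. Mir145 was listed at 0 in all 3 libraries at 24 h and at 907, 529 and 155 unnormalised FPKM at 2 h, so no fold is given. Values of 0 for Mir145 also occurred in each group without JQ1, unstimulated cells included. The mature sequences of the 5 prime arm of miR-145 and the 3 prime arm of miR-143 are shown because they name the products of the locus. They are from RefSeq on GRCr8 (minus strand, chr18:57370033-57370055 and chr18:57371373-57371394), with the seed, bases 2 to 8, in capitals, and their seeds differ.
rno-miR-145-5p: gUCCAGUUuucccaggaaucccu
rno-miR-143-3p: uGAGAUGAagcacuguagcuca

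Genes of the extracellular matrix fell with them. Eln had 83.3, 49.1 and 77.7 normalised FPKM at 24 h, against 6070.1, 6547 and 6348 at 2 h, a difference of -6.51 ± 0.18 (limma, adjusted p = 1.47e-12). Lox, the lysyl oxidase gene whose product crosslinks elastin and collagen, had 3.63, 4.31 and 4.64 normalised FPKM at 24 h, against 177, 244 and 213 at 2 h (-5.35 ± 0.16). Col3a1, the type III collagen gene, had 37.6, 35.3 and 37.3 normalised FPKM at 24 h, against 529, 612 and 594 at 2 h (-3.94 ± 0.13). No 24 h library reached the 2 h level in any of them. Of the 26 matrix genes, 25 were in the table and 22 were tested, of which 17 fell and 2 rose (median -1.68), the same numbers as unnormalised. Over all tested genes 17.4% fell and 29% rose. Lum (lumican, a collagen-binding proteoglycan) fell by 3.97, Fbln5 (fibulin 5, needed for elastic fibre assembly) by 3.76, Thbs1 (thrombospondin 1) by 3.43 and Sparc by 1.97. The versican gene Vcan rose by 1.38 and Col8a1, a type VIII collagen gene, by 1.22. Col1a1 and Fn1, the type I collagen and fibronectin genes, stood at 0.39 and 0.41 and did not pass. Without JQ1 plus PDGF 24 h replicate 1 the number that rose was 4. The list of adventitial fibroblast markers summed to between 127 and 156 normalised FPKM at 24 h, against 271 to 316 at 2 h. Of its 5 tested genes, the 2 that fell were Lum and Serpinf1 (-2.16 ± 0.11), and Lum is also on the matrix list. Dcn, Dpt and Cd34 of that list were at or near 0 in these libraries. The part of such cells in the matrix result was not tested.

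Proteases and their inhibitors fell more often than they rose. Timp3, a tissue inhibitor of metalloproteinases that stays in the matrix, had 17.1, 12.5 and 12.6 normalised FPKM at 24 h, against 235, 282 and 282 at 2 h (-4.16 ± 0.15). Mmp2, the gelatinase A gene, had 22.1, 19.2 and 20.05 normalised FPKM at 24 h, against 145, 162 and 176 at 2 h (-2.91 ± 0.13). Plaur, the urokinase receptor gene, fell by 3.43. Of 13 tested genes 8 fell and 2 rose (median -0.80), with Plat and Adamts5 as those that rose, and of 11 tested unnormalised the same numbers. The shares over all tested genes were 17.4% lower and 29% higher.

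Genes that regulate calcification mostly rose. Ankh, which encodes a pyrophosphate exporter that opposes mineral deposition, had 72.2, 61.5 and 59.9 normalised FPKM at 24 h, against 5.34, 6.76 and 6.72 at 2 h (3.17 ± 0.16). Spp1, the osteopontin gene, had 24551, 21329 and 22006 normalised FPKM at 24 h, against 10029, 9995 and 10098 at 2 h (1.17 ± 0.18). Both were higher in every library at 24 h. Mgp, the matrix Gla protein gene, rose by 0.56, the phosphate transporter gene Slc20a2 by 1.27 and Enpp1 by 0.65. Tnfrsf11b, which encodes the decoy receptor osteoprotegerin, fell by 2.87 and Bmp2 by 1.35. Of 12 listed genes 8 were tested, of which 5 rose and 2 fell (median 0.61), the same numbers as unnormalised. Over all tested genes 29% rose and 17.4% fell, against 25.4% and 27.2% unnormalised, so the falls were near that share. Sfrp4, which encodes a secreted Wnt antagonist, was among the most raised genes, with 26.7, 23.4 and 23.6 normalised FPKM at 24 h, against 0.258, 1.3 and 1.45 at 2 h (3.73 ± 0.32).

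Most immediate early genes, which growth factors induce within minutes without new protein synthesis, were lower at 24 h. Of 34 genes 29 fell and 2 rose (median -1.21), against 30 and 1 unnormalised, where 17.4% of all tested genes fell and 29% rose on the spike-in scale. Arc, which is not on the list and is known for its rapid induction in active neurons, had 5.17, 3.43 and 3.87 normalised FPKM at 24 h, against 256, 346 and 306 at 2 h (-5.89 ± 0.22). Nr4a3, an orphan nuclear receptor gene, had 2.47, 1.84 and 2.72 normalised FPKM at 24 h, against 53, 73.6 and 66.4 at 2 h (-4.29 ± 0.19). Egr1, a zinc finger transcription factor gene, had 184, 139.8 and 156 normalised FPKM at 24 h, against 459, 567 and 527 at 2 h (-1.69 ± 0.15 (limma, adjusted p = 1.96e-07)). The groups did not overlap in any of the 3 genes, as was so for 57.6% of all tested genes. Egr3 fell by 4.20, Fosb, an AP-1 subunit gene, by 3.97, and the phosphatase genes Dusp2 and Dusp5 by 3.89 and 3.82. Fos fell by 2.0 and Myc by 0.81. Jund and Jun were those that rose, by 1.08 and 0.40, and Jun did not pass as unnormalised. Atf3, which encodes a stress-induced transcription factor, had 19.6, 15.6 and 18.8 normalised FPKM at 24 h, against 57.5, 63.4 and 54.2 at 2 h. Unstimulated cells had 0.739 and 0.887 normalised FPKM of Atf3 and 14.6 and 14.8 of Egr1, below every library of both JQ1 groups.

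The promoter windows of immediate early genes often held a CArG box, the element bound by SRF. Windows of 300 bases, from 250 before to 50 after the gene start in RefSeq on GRCr8, were searched on both strands for the CArG box with every central base A or T. A window was found for 23 of the 34 immediate early genes, and 6 of these held a box (26.1%: Dusp5, Egr1, Egr2, Klf6, Srf and Zfp36), against 1.28% of 7735 tested genes and 1.77% of all 27457 genes with a window. Of 20 contractile genes with a window, 0 held one, which says only that these letters are not in the window. Of the 6 genes with a box, Klf6 did not pass (0.12 ± 0.12) and the others fell, by 3.82 for Dusp5, 1.89 for Egr2, 1.69 for Egr1, 1.14 for Zfp36 and 1.0 for Srf. A match is a description of the sequence and not a shown binding site. The windows of Dusp5 (chr1:262543524-262543823, plus strand), Egr1 (chr18:26736828-26737127, plus strand) and Egr2 (chr20:21054392-21054691, minus strand) are shown because their boxes lie at similar distances from the start, with the boxes in capitals.
Dusp5: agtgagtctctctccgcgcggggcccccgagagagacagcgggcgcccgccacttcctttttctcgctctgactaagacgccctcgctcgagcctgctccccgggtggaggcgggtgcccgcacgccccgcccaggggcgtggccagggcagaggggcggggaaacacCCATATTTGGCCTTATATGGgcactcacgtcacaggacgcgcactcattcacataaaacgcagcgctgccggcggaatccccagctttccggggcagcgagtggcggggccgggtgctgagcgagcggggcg
Egr1: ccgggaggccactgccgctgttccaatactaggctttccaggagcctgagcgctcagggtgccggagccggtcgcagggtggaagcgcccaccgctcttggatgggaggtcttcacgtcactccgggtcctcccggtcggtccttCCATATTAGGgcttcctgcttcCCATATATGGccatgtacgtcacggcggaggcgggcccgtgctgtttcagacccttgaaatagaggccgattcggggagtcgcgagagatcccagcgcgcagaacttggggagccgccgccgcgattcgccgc
Egr2: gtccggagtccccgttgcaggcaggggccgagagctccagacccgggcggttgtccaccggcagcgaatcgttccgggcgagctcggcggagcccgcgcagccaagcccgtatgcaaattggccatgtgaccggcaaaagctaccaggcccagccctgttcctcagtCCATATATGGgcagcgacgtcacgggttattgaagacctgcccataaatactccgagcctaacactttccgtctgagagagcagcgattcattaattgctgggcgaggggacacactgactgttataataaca
The Dusp5 boxes begin 82 and 72 bases before the start, those of Egr1 105 and 83 bases before it and that of Egr2 83 bases before it.

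Inflammatory and interferon genes were mixed, with more lower than higher. Il1rl1, the interleukin 33 receptor gene, had 1.31, 1.09 and 1.45 normalised FPKM at 24 h, against 65.4, 109 and 83.5 at 2 h (-5.22 ± 0.18). Cxcl12, a chemokine gene, had 22.2, 15.2 and 16.9 normalised FPKM at 24 h, against 413, 459 and 457 at 2 h (-4.56 ± 0.15). In contrast Ccl2, a monocyte chemokine gene, had 28.5, 28 and 28.2 normalised FPKM at 24 h, against 39.9, 21.3 and 31.3 at 2 h, overlapping groups that did not pass (-0.08 ± 0.18 (limma, adjusted p = 0.755)). Of 22 inflammatory genes 19 were tested, of which 11 fell and 3 rose (median -0.82), the same numbers as unnormalised. Those that rose were Vcam1, Nfkbia and Nfkbiz, of which 1 passed without JQ1 plus PDGF 24 h replicate 0. Ccl7 fell by 3.50, the cytokine genes Il11 and Lif by 2.77 and 2.30, and Ptgs2, the inducible cyclooxygenase gene, by 1.93. Tnfaip6, which encodes a hyaluronan-binding protein induced by cytokines, had 1.52, 1.11 and 2.04 normalised FPKM at 24 h, against 71.7, 48.6 and 57.9 at 2 h (-4.56 ± 0.24), and F3, the tissue factor gene, had 1.76, 2.03 and 1.69 normalised FPKM at 24 h, against 83.2, 86.9 and 85 at 2 h (-4.93 ± 0.19). Of 18 interferon response genes 10 fell and 2 rose (median -0.61), against 13 and 1 unnormalised. For both lists, the shares over all tested genes were 17.4% lower and 29% higher, against 27.2% and 25.4% unnormalised. Gbp2, a guanylate-binding protein gene, fell by 2.81, Usp18, whose product removes ISG15, by 2.76, and the regulator gene Irf7 by 2.07. The leukocyte marker list of 10 genes summed to between 8.40 and 18.8 normalised FPKM at 24 h, against 6.42 to 9.49 at 2 h, and its part in these counts was not tested. Its lysosomal gene Cd68 rose, with 13, 4.16 and 6.19 normalised FPKM at 24 h, against 2.46, 1.66 and 2.11 at 2 h (1.39 ± 0.40), and lost its call without the highest library, JQ1 plus PDGF 24 h replicate 0 (0.99).

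Most listed cell cycle genes fell. Of 25 listed genes of G2/M and mitosis 24 were tested, and 24 fell on either scale (17.4% and 27.2% of all genes fell), with a median of -1.81. Ccna2, the cyclin A2 gene, had 0.856, 0.687 and 0.626 normalised FPKM at 24 h, against 18.2, 24.4 and 23.3 at 2 h (-3.73 ± 0.20). Birc5, the survivin gene, had 1.12, 1.33 and 1.22 normalised FPKM at 24 h, against 22.2, 24.1 and 19.2 at 2 h (-3.36 ± 0.17). Each 24 h library was below each 2 h library. Their levels were low, and the summed G2/M list fell to between 33.7 and 40.6 normalised FPKM at 24 h, against 228 to 259 at 2 h. Of 28 G1/S and replication genes 19 fell and 2 rose (median -0.75), against 19 and 1 unnormalised. Rrm2, which encodes the regulatory subunit of ribonucleotide reductase, had 0.962, 0.116 and 1.85 normalised FPKM at 24 h, against 44, 42.8 and 37.4 at 2 h (-4.52 ± 0.24). Tk1, the thymidine kinase gene, had 1.24, 1.21 and 1.27 normalised FPKM at 24 h, against 26.6, 18.8 and 24.4 at 2 h (-3.42 ± 0.15), and the helicase subunit gene Mcm5 fell by 2.27. Ccnd1, the cyclin D1 gene, moved the other way, with 107, 91.8 and 92.9 normalised FPKM at 24 h, against 40.9, 41.5 and 43.1 at 2 h (1.19 ± 0.12). Gadd45g, a growth arrest gene, was among the most lowered, with 2.11, 1.04 and 1.74 normalised FPKM at 24 h, against 82.5, 70.4 and 75 at 2 h (-4.89 ± 0.24).

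The most raised genes named by the rule included regulators of glucose uptake, apoptosis and stress. Txnip, which encodes an inhibitor of thioredoxin and of glucose uptake, had 264, 195 and 207 normalised FPKM at 24 h, against 8.59, 7.6 and 7.32 at 2 h, a difference of 4.65 ± 0.16 (limma, adjusted p = 4.51e-12). The related arrestin gene Arrdc2 had 143, 108 and 104 normalised FPKM at 24 h, against 5.89, 7.68 and 6.3 at 2 h (3.96 ± 0.22), and Plk5, a polo-like kinase gene, had 55.8, 46.8 and 45.1 normalised FPKM at 24 h, against 0.728, 2.41 and 1.33 at 2 h (4.39 ± 0.32). The 3 genes were low in all libraries at 2 h and well above them in all libraries at 24 h. Gdf15, a stress-induced cytokine gene, had 34.4, 32.7 and 30.3 normalised FPKM at 24 h, against 1.78, 1.02 and 1.84 at 2 h (3.73 ± 0.19). Bbc3, which encodes the pro-apoptotic protein PUMA, had 34.8, 28 and 27.7 normalised FPKM at 24 h, against 1.72, 4.15 and 2.2 at 2 h (3.13 ± 0.25), and Pip5k1c, a phosphatidylinositol phosphate kinase gene, had 398, 282 and 329 normalised FPKM at 24 h, against 31.9, 33.9 and 33.5 at 2 h (3.29 ± 0.15). None of these groups overlapped, as the rule required. The nucleoside transporter gene Slc29a1 rose by 2.86, Gamt, of creatine synthesis, by 2.98, Isyna1, of inositol synthesis, by 2.81, and the heparan sulfate sulfotransferase gene Hs3st1 by 3.48.

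Genes of the amino acid and stress response rose more often than they fell. Of 23 genes 12 rose and 5 fell (median 0.45), against 11 and 8 unnormalised. For this and the next 2 lists, the shares over all tested genes were 29% higher and 17.4% lower. On unnormalised FPKM these shares were 25.4% and 27.2%. Ddit3, which encodes the stress transcription factor CHOP, had 671, 553 and 570.5 normalised FPKM at 24 h, against 101, 103 and 96.5 at 2 h (2.56 ± 0.10 (limma, adjusted p = 2.54e-11)), and Trib3, a pseudokinase gene that CHOP is known to induce, had 32.4, 21.3 and 22.8 normalised FPKM at 24 h, against 11.2, 4.88 and 6.37 at 2 h (1.69 ± 0.23). Asns, the asparagine synthetase gene, rose by 1.54 and the tRNA synthetase genes Aars and Gars by 1.30 and 1.15. Atf4 itself fell by 0.34, and the transporter genes Slc7a5 and Slc7a1 by 1.80 and 1.07. Chaperone genes of the endoplasmic reticulum did not rise with them: 6 of 14 fell and 1 rose (median -0.14), against 10 and 0 unnormalised. Hspa5, the BiP gene, had 804, 648 and 717 normalised FPKM at 24 h, against 1129, 1299 and 1185 at 2 h (-0.74 ± 0.13). Of 22 ribosome biogenesis genes 10 rose and 0 fell, but unnormalised 9 rose and 6 fell, and the list median was 0.33 normalised and 0.10 unnormalised. Ltv1 and Nop2, of ribosomal subunit maturation, rose by 1.22 and 1.18.

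**Figure D3:**
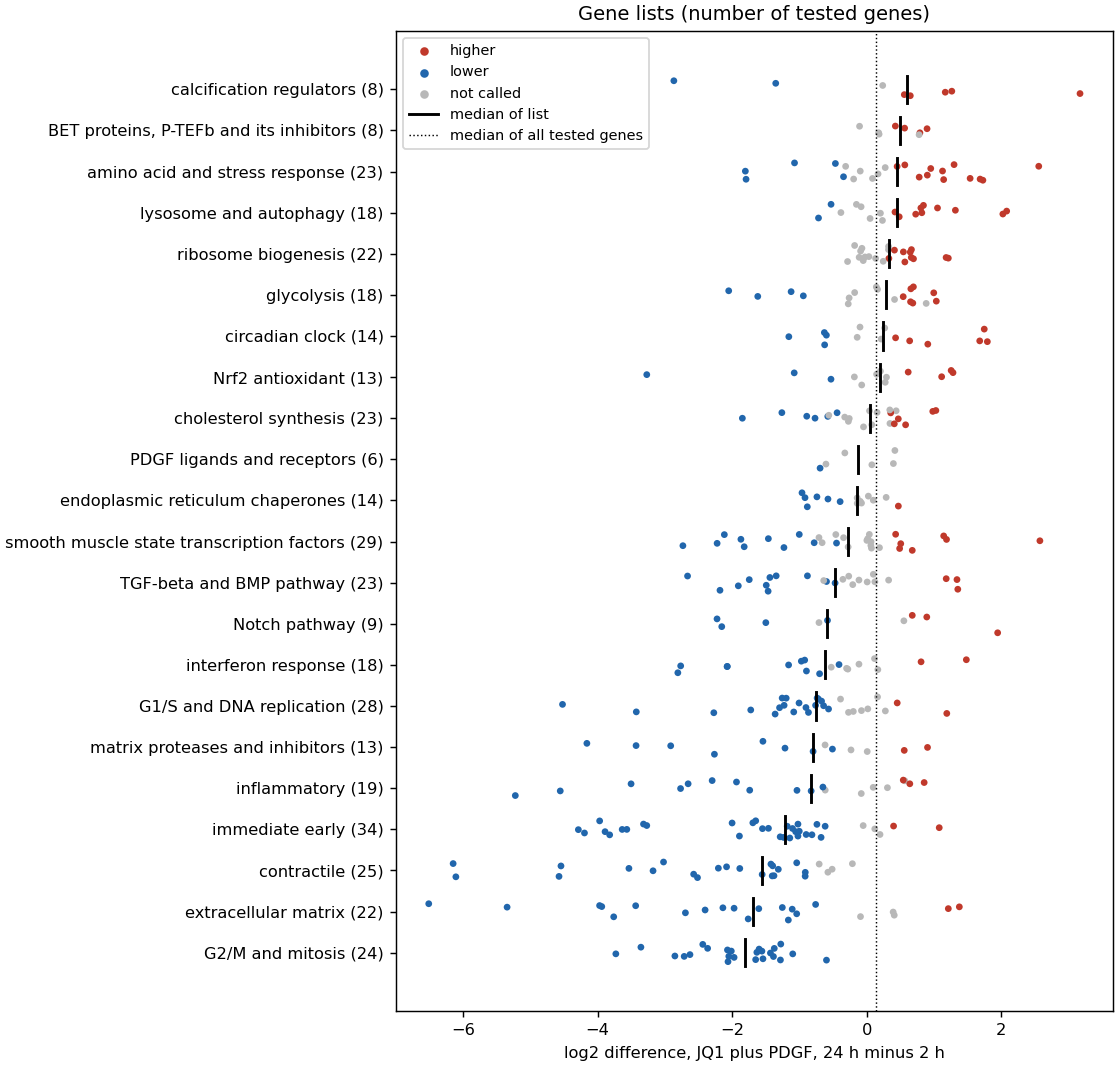
Each point is a tested gene of a list at its log2 difference, 24 h minus 2 h of JQ1 plus PDGF (red higher, blue lower, grey not called), and black bars are list medians beside the dotted median of all tested genes. The lists of G2/M and mitosis, extracellular matrix, contractile and immediate early genes have their medians lowest, between -1.81 and -1.21, and lists with fewer than 6 tested genes are left out.

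Metabolic lists held both higher and lower genes, several at shares near those of all genes (29% rose and 17.4% fell). Lysosome and autophagy genes mostly rose, 10 of 18 with 2 lower (median 0.45; 9 and 3 unnormalised). Ctsl, the cathepsin L gene, had 1759.8, 1513 and 1526 normalised FPKM at 24 h, against 379, 371 and 425 at 2 h (2.03 ± 0.12), and Mcoln1, which encodes a lysosomal calcium channel, had 61.2, 52.8 and 51.4 normalised FPKM at 24 h, against 9.78, 14.2 and 13.1 at 2 h (2.08 ± 0.16). Both were higher at 24 h in every library. Of 18 glycolysis genes 7 rose and 4 fell, but unnormalised 5 rose and 7 fell. The hexokinase gene Hk2 and the glucose transporter gene Slc2a1 fell by 2.05 and 1.62, and the phosphofructokinase gene Pfkp rose by 1.04. Of 23 cholesterol synthesis genes 6 rose and 6 fell, against 4 and 10 unnormalised, with Idi1, an isoprenoid synthesis gene, lower by 1.85. Srxn1, the sulfiredoxin gene, had 94, 70.3 and 83.7 normalised FPKM at 24 h, against 741, 819 and 843 at 2 h (-3.27 ± 0.14), whereas Nqo1 and Keap1 of the same Nrf2 list rose by 1.26 and 1.28. Of the 13 Nrf2 genes 4 rose and 3 fell, against 4 and 5 unnormalised. Of 14 clock genes 6 rose and 4 fell, against 5 and 4 unnormalised, with the output gene Dbp and the repressor genes Ciart and Bhlhe40 higher by 1.75, 1.80 and 1.68 and Per2 lower by 1.16.

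Among signalling genes, 2 of the TGF-beta ligand genes fell and 1 rose. Tgfb3 and Tgfb2 fell by 2.66 and 2.18, as did Grem1 and Fst, which encode secreted antagonists of BMPs and activins, by 1.91 and 1.74. Tgfb1 rose by 1.18. Of 23 genes of the pathway 11 fell and 3 rose (median -0.47), against 13 and 3 unnormalised. The Notch receptor genes Notch1 and Notch3 fell by 2.22 and 1.5, while the ligand gene Jag1 had 61, 46.3 and 49.8 normalised FPKM at 24 h, against 12, 14.5 and 11.9 at 2 h (1.95 ± 0.14). Of 9 Notch genes 3 rose and 4 fell, the same as unnormalised, where 29% of all genes rose and 17.4% fell on the spike-in scale. Pdgfrb, the PDGF receptor beta gene, had 161, 119 and 132 normalised FPKM at 24 h, against 127, 125 and 135 at 2 h, in overlapping groups (0.08 ± 0.13 (limma, adjusted p = 0.655)). Of the 6 genes for PDGF ligands and receptors, 1 fell, Pdgfa (-0.69 ± 0.12), and 0 rose, against 2 and 1 unnormalised.

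Genes of the BET proteins and of P-TEFb changed by less than 1 on the log2 scale. Brd2 rose by 0.90 from a low level, and Hexim1, whose product inhibits P-TEFb and whose transcript is known to rise under BET inhibition, had 189, 164 and 162 normalised FPKM at 24 h, against 92.8, 99.4 and 103 at 2 h (0.79 ± 0.13). Hexim1 stood at 65.5, 55 and 56.9 at 24 h, against 18.3, 27.2 and 22.7 at 2 h with PDGF alone and at 39.8 and 36.6 in unstimulated cells. Of 8 tested genes 4 rose and 0 fell (median 0.50), against 3 and 0 unnormalised, where Ccnt2 did not pass. Over all tested genes 29% rose, and 25.4% unnormalised.

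The time course differed from that of PDGF without JQ1, with which it shares no library. The titles carry letters that differ between the libraries with and without JQ1, and a meaning of these letters, if any, cannot be told apart from the agent. Across the 10133 genes the differences with and without JQ1 had a Pearson correlation of 0.6152 and a Spearman correlation of 0.5738, as a description. Of the genes that fell with JQ1, 46.28% also fell without it, where 11.8% of all tested genes fell, and of those that fell without JQ1, 68.32% also fell with it. Of the genes that rose with JQ1, 76.26% also rose without it, where 44.5% of all tested genes rose, and of those that rose without JQ1, 49.71% also rose with it. Which direction was shared more depended on the scale, since on unnormalised FPKM 59.38% of the genes that fell with JQ1 also fell without it (25.6% of all) and 53.67% of those that rose with JQ1 also rose without it (26.9% of all). In the test of the difference between the time courses, 488 genes were higher with JQ1 and 1771 lower (4.82% and 17.5% of the genes tested, 22.3% together), but 1337 and 1646 unnormalised (29.8% together). Of 815 genes that fell in both, 198 fell further with JQ1 and 57 further without it, against 357 and 217 of 1618 unnormalised. Opposite calls were seen in 291 genes, 43 higher with and lower without JQ1 and 248 lower with and higher without. The difference passed in all 291, which opposite calls in 1 fit make nearly certain, so it adds no separate evidence. On unnormalised FPKM the opposite calls were more even, with 161 higher with and lower without JQ1 and 219 lower with and higher without. The difference again passed in all 380, for the same reason.

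**Figure D4:**
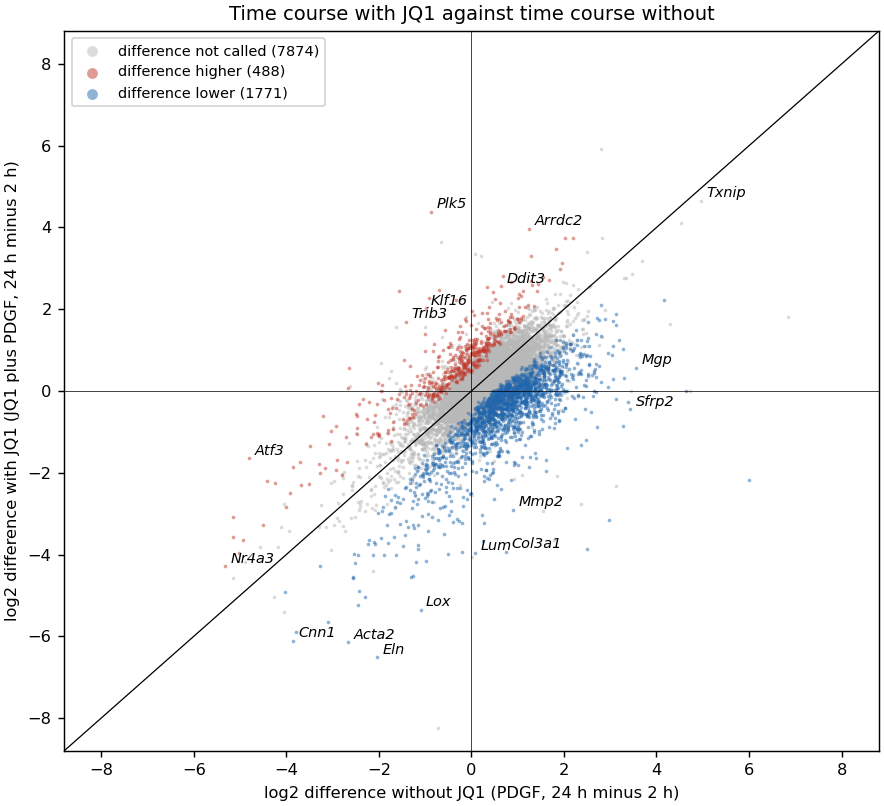
Each point is a tested gene at its log2 difference, 24 h minus 2 h, without JQ1 (x axis) and with JQ1 (y axis), coloured by the test of the difference between the time courses, with the line of equality. Of the coloured genes 488 lie above the line and 1771 below it, with Col3a1 and Mmp2 low with JQ1 and near or above 0 without it.

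Most matrix genes had a lower difference in this test. Col3a1 had 1194, 1337 and 1131 at 24 h, against 626, 676 and 885 at 2 h normalised FPKM without JQ1, a rise of 0.76, and the difference between the time courses was -4.69 ± 0.18 (limma, adjusted p = 3.73e-10). Mmp2 likewise rose without JQ1, with 423, 382 and 375 at 24 h, against 180.1, 201 and 252 at 2 h normalised FPKM (-3.82 ± 0.18 between the time courses). Lum stood at 106, 122 and 107 at 24 h, against 95.5, 114 and 108 at 2 h without JQ1, where it did not pass (-4.05 ± 0.17 between the time courses). Eln and Lox fell in both, by 6.51 with JQ1 and 2.04 without it for Eln, and by 5.35 and 1.10 for Lox. Of 22 matrix genes the difference was lower for 16 and higher for 0 (17.5% of all genes were lower), against 17 and 1 unnormalised. Ctsk, Sfrp2, Srpx and Pdgfrl were also among the genes with the lowest difference. Srpx had 5, 4.91 and 4.67 normalised FPKM at 24 h, against 24, 21.8 and 20.1 at 2 h with JQ1, and 92.5, 84.8 and 83.5 at 24 h, against 24.3, 27.1 and 32.5 at 2 h without it. Mgp, which rose with JQ1 as above, had 16265, 14114 and 14579.9 at 24 h, against 1141, 1209.5 and 1486 at 2 h normalised FPKM without it, so its difference was -3.00 ± 0.18.

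Many contractile and mitotic genes also had a lower difference in this test, where 17.5% of all genes were lower. Of 25 contractile genes the difference was lower for 14 and higher for 0, and of 24 G2/M genes lower for 13 and higher for 0 (16 of 24 and 16 of 24 lower unnormalised). Acta2 fell by 6.15 with JQ1 and 2.66 without it, a difference of -3.49 ± 0.23 (limma, adjusted p = 6.58e-08). Cnn1 differed by -2.24 ± 0.24 and Tagln by -2.01 ± 0.22. Myh11, with -0.37 ± 0.33, did not pass in this test.

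Many immediate early and stress genes had a higher difference between the time courses, which does not mean a higher level with JQ1. Nr4a3 passed as higher (1.03 ± 0.27), yet each 2 h library with JQ1 had less of it than each 2 h library without. The means were 64.3 normalised FPKM at 2 h with JQ1 and 162.7 without it, and 2.34 and 3.16 at 24 h. At 24 h the levels were low and the groups overlapped. They also overlapped on unnormalised FPKM, with 2.21, 2.17 and 3.10 with JQ1 against 2.69, 1.52 and 2.41 without it. Of 34 immediate early genes the difference was higher for 15 and lower for 3 (4.82% of all genes were higher), against 23 and 3 unnormalised. Atf3 had 0.965, 0.492 and 0.921 at 24 h, against 51.3, 49.98 and 44.8 at 2 h normalised FPKM without JQ1, a fall of 4.80, against 1.65 with JQ1 (3.15 ± 0.22 (limma, adjusted p = 1.14e-07)). Egr1 fell by 1.69 with JQ1 and 2.91 without it (1.22 ± 0.21). Fos differed in the other direction (-1.26 ± 0.32). Of 23 amino acid and stress genes the difference was higher for 16 and lower for 2 (18 and 2 unnormalised), and of 22 ribosome biogenesis genes higher for 11 and lower for 0 (16 and 0 unnormalised). Trib3 had 15.7, 13.4 and 11.2 at 24 h, against 35.5, 36.7 and 38.9 at 2 h without JQ1, a fall of 1.41, and Klf16, a zinc finger factor gene, had 21.9, 21.5 and 25 at 24 h, against 36.3, 54.1 and 50.4 at 2 h, a fall of 0.99, while both rose with JQ1. Plk5, at 0.334, 0.341 and 0.342 at 24 h, against 0.66, 3.39 and 0.998 at 2 h without JQ1, had the highest difference, 5.25 ± 0.45. Ddit3 rose in both time courses, by 2.56 with JQ1 and 0.64 without it. Txnip rose by 4.65 with JQ1 and 4.97 without it, and this difference did not pass (-0.32 ± 0.23).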

How the data were processed

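Polyadenylated RNA of rat aortic smooth muscle cells was sequenced as 40-base single ends with a stranded kit, per the labels' protocols, and the ERCC spike-in dose was proportional to the RNA from a set cell number. The authors deposited 1 table of unnormalised FPKM and 1 of normalised FPKM, with 17404 features each. Per the submitters' processing notes HISAT, Cufflinks 2.0.0 and build rn6 were used. The annotation and the method of normalisation are not given in the sources used here. From the values, a smooth curve per library was applied to the FPKM plus about 0.1, and it moved low values by up to 0.68 in size (log2) in the 6 libraries compared, most in JQ1 plus PDGF 2 h replicate 0 (-0.68 against -0.37 for high values). The difference between the time courses also uses libraries without JQ1. There low values moved by 1.07 in PDGF 2 h replicate 1 and -0.33 in PDGF 2 h replicate 0. They moved by 1.00 in PDGF 24 h replicate 0 and -0.29 in PDGF 24 h replicate 2. Replicates are named by the digit of the column. The titles hold letters in its place, which left columns tied to groups and not to samples, and 0 columns lacked a group.

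Tested genes reached a normalised FPKM of 1 in 2 or more of the 14 libraries. The values, as log2(normalised FPKM + 1), were fitted with limma 3.58.1 (R 4.3.3) in 1 model over 5 groups (9 residual degrees of freedom) with empirical Bayes and a mean trend. Adjusted p under 0.05 was a call. The members, the 25 gene lists (463 genes, 7 without a feature, 2 matched by an alias, 416 tested) and the naming rule were chosen with earlier results of these data known. Named were the 15 highest and 15 lowest differences among genes called on both scales without overlap, leaving out microRNA and unnamed loci, up to 4 genes per list with the largest called differences, the 10 highest and 10 lowest differences between the time courses, up to 8 genes with opposite calls, and 17 fixed genes. List members given with a single value beyond these were chosen after their values were seen. A few genes that the rule names are not reported here. Alternatives were unnormalised and median-centred FPKM, a pseudocount of 0.1, other filters, other fits and leaving out libraries. Exact permutation of 3 against 3 could not go below 0.1. On simulated data of 10133 genes, 43.28, 73.13 and 96.97% of genes changed 1.5, 2 and 4-fold were recovered for 24 h against 2 h, with 5 false calls, and 13.43, 40.3 and 92.42% for the difference between the time courses, with 6. There 67, 67 and 66 genes were changed, none of them weakly expressed and only in the JQ1 group at 24 h, with normal noise. In the real data 46.4% of genes were called, so these rates do not carry over and say nothing of weakly expressed genes. Sequences are from RefSeq tables on GRCr8, and no rn6 coordinates are printed.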

Additional observations from a re-analysis of the deposited data

Results flagged for a closer look

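The test of the difference between the time courses with and without JQ1 (24 h minus 2 h in each) was passed by 488 genes as higher and 1771 as lower with JQ1, in limma on the spike-in scale. Every gene named below passed that test, and its value is the log2 difference between the 2 time courses. Higher and lower refer to this difference and not to the level, which could stand the other way.

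A higher difference was found for Plk5 and MGC105649, which had opposite calls in the time courses, at 5.25 and 4.0. Among secreted signals the difference was 3.22 for Cxcl1, 2.76 for Areg and 2.58 for Cxcl10, with Ccl2 at 0.84. Transcription factors and stress genes were higher at 3.15 for Atf3, 3.10 for Trib3, 3.01 for Klf16, 1.22 for Egr1 and 0.62 for Klf4. Mrps10, a mitochondrial ribosomal protein gene, stood at 3.19 ± 0.90 and Arrdc2 at 2.72. Mrps10 scattered widely and is uncertain, with 44.2, 33.5 and 37.5 normalised FPKM at 24 h, against 3.11, 17.2 and 6 at 2 h with JQ1, and 1.2, 17 and 16.5 at 24 h, against 13.5, 19.8 and 14.2 at 2 h without it, where 1 library at 24 h, PDGF 24 h replicate 0, lay far below the others. Without that library its difference was 2.18, and with no filter on low genes it did not pass. Cxcl1, Areg, Cxcl10 and Ccl2 fell without JQ1 and did not pass with it. The level of Ccl2 was lower with JQ1 at both times. It had 26.9, 32.9 and 31.8 unnormalised FPKM at 24 h with JQ1, against 70.9, 69 and 96 without it. At 2 h the values were 51.6, 25.9 and 37.7, against 222, 189 and 173. Cxcl1 was low and scattered, with 0, 6.08 and 2.03 unnormalised FPKM at 2 h with JQ1, and is uncertain.

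A lower difference was found for matrix genes, at -4.69 for Col3a1, -4.47 for Eln, -4.25 for Lox, -4.05 for Lum and -3.82 for Mmp2. Secreted or lysosomal proteins included -4.14 for Ctsk, -3.91 for Pdgfrl, -3.88 for Sfrp2, -3.58 for Srpx and -3.67 for Kazald1. Crip1, a LIM domain protein gene at low levels, stood at -3.70. Contractile genes stood at -3.49 for Acta2, -2.24 for Cnn1 and -2.01 for Tagln. Of the other genes on the fixed list, the values were -3.00 for Mgp, -1.26 for Fos, -1.18 for Pdgfrb, -0.88 for Spp1, -0.78 for Ccnd1 and -0.56 for Hexim1. The level of Hexim1 was higher with JQ1 than without it at both times, and its value means a smaller rise over time. Rpl37a, a ribosomal protein gene with near-identical copies whose replicates scattered widely, stood at -6.13 and is uncertain.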

How the results depend on the processing

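The number of genes that fell between 2 and 24 h was 1761 on the spike-in scale, but 2725 on unnormalised and 2737 on median-centred FPKM, and the number higher in the difference between the time courses was 488, but 1337 and 1343. These scales lack the shift of the median that the spike-in scale holds. With 1 library left out at a time, 2204 to 2796 genes rose and 1412 to 1822 fell, and in the difference 357 to 630 were higher and 1300 to 2072 lower. Without the 4 libraries whose low values the authors' curve moved up most in each group, chosen after seeing the data, 2508 rose and 1906 fell, and in the difference 349 were higher and 1995 lower. Of 119 named genes, 113 kept their direction and call for 24 h against 2 h under every alternative run, and 31 of 39 did so for the difference. Many of them were named for large calls, and the highest and lowest had to pass on unnormalised FPKM too. Their stability was thus partly set by the choice and does not describe the other genes. Ccl2, Hexim1, Klf4, Spp1, Rpl37a and Mrps10 lost their call for the difference in 1 or more settings, and Myc and Myocd, not called, gained one. For 24 h against 2 h, Spp1, Ccnt2 and Cd68 lost a call and Myocd gained one. Signs turned only where no call was made. Ccl2 lay between -0.31 and 0.12 with 1 library left out. Pdgfrb stood at -0.14 on both other scales, at -0.064 without the 4 libraries and between -0.043 and 0.17 with 1 library left out. Myocd in the difference stood at -0.12 with a pseudocount of 0.1. The cause of these turns was not tested. List counts of 3 genes or fewer for 24 h against 2 h moved by 1 or 2 genes in several settings, and the number of ribosome biogenesis genes that fell was 0, but 6 on both other scales. With that pseudocount 21 G2/M genes were lower in the difference in place of 13. Depth is unknown, so low values carry no interval. No paired analysis was possible because the columns carry digits and not the letters of the titles, and the letters in the JQ1 groups were E, F and H at 24 h and E, G and H at 2 h.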

Other observations

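Families outside the lists, chosen after their values were seen and given as counts only, moved mostly in 1 direction, where 29% of all tested genes rose. Of 66 tested mitochondrial ribosomal protein genes, 46 rose and 0 fell between 2 and 24 h of JQ1 plus PDGF (median 0.71), against 41 and 1 unnormalised. Of 40 proteasome subunit genes 32 rose and 2 fell (28 and 2 of 39 unnormalised), and of 40 NADH dehydrogenase subunit genes 23 rose and 0 fell (18 and 2 unnormalised). Of 27 mediator subunit genes, which link transcription factors to RNA polymerase II, 17 rose and 2 fell (14 and 4 unnormalised). The cytosolic ribosomal protein genes, many with near-identical copies, did not: 1 of 78 rose and 5 fell (2 and 37 unnormalised). Without JQ1 42 of the mitochondrial ribosomal genes were higher and 0 lower, where 44.5% of all genes rose, but unnormalised 15 were higher and 5 lower, where 26.9% rose. In the difference between the time courses 7 of 66 passed as higher, against 16 unnormalised (4.82% and 13.4% of all genes).

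The CCN family of matricellular genes was split. Cyr61 had 56.3, 46.1 and 51.5 normalised FPKM at 24 h, against 904, 1104 and 1067 at 2 h (-4.29 ± 0.13), Nov had 66.4, 50.9 and 62.9 normalised FPKM at 24 h, against 567, 613 and 579.8 at 2 h (-3.28 ± 0.14) and Wisp2 fell by 2.59. Wisp1 rose by 1.69, while Ctgf had 1817, 1495 and 1614 normalised FPKM at 24 h, against 1505, 1802 and 1596 at 2 h, in overlapping groups (0.01 ± 0.13, not passing), but passed as lower on unnormalised FPKM (-0.24, limma, adjusted p = 0.0134). P4ha3, a collagen prolyl hydroxylase subunit gene, had 6.62, 4.41 and 5.78 normalised FPKM at 24 h, against 98.1, 100.2 and 116 at 2 h (-4.01 ± 0.15), whereas P4ha2 stood at 0.38 ± 0.16 and did not pass. Of 28 collagen genes 17 were tested, of which 9 fell and 2 rose (12 and 2 unnormalised), where 17.4% of all tested genes fell (27.2% unnormalised).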
